A study of Mus musculus with 15 samples.

Results

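The B cell receptor genes described here were 9 mouse genes that encode the signalling chains of the receptor and the proteins acting next to it: Cd79a, Cd79b, Cd81, Lyn, Syk, Btk, Blnk, Plcg2 and Bank1. They were chosen by name, and every probe set annotated to them on an Affymetrix mouse array was taken. Of the 9 genes 8 had a probe set, 11 probe sets in all (4 for Syk and 1 for each of the others) among 45037 besides controls and 18193 genes. Lyn was not analysed here. Signals came from AM-14 B cells, murine B cells kept in media alone or given 1 of 4 stimuli, with 3 arrays per group and 15 arrays in all. The stimuli were F(ab')2 goat anti-mouse IgM, which crosslinks the receptor, the phosphorothioate CpG oligodeoxynucleotide 1826, a ligand of TLR9, PL2-3, labelled as a chromatin immune complex, and anti-IgM together with CpG. The combined stimulus is taken from that group's titles, since its treatment field says none. As background, AM-14 is a transgenic rheumatoid factor receptor that binds IgG2a, and PL2-3 is an IgG2a antibody to chromatin, so its complexes can reach both the receptor and TLR9. Neither doses nor times of stimulation are in the sources used here, nor the age or number of the mice. Nothing in the labels says that replicates came from separate animals or cultures, so p-values measure only the spread between these arrays, whose number limits the precision.

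Cd79a and Cd79b form the heterodimer that sits beside membrane immunoglobulin and carries its signal through paired tyrosines of their cytoplasmic tails. Src family kinases such as Lyn phosphorylate these tyrosines, Syk docks on them and phosphorylates the adaptor Blnk, and Btk and Plcg2 assemble on Blnk so that Plcg2 releases the second messengers of calcium and protein kinase C signalling. Cd81 is a tetraspanin of the B cell surface, and Bank1 is a scaffold that binds Lyn and modulates the calcium response.

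Promoter sequence is shown for 4 of these genes because their transcripts behaved differently: Cd79a and Bank1 were lower after all 4 stimuli, Cd81 was higher after the 3 that include CpG or PL2-3, and Blnk was lower after anti-IgM but not after CpG. Each line gives the 250 bases before the annotated start from RefSeq on GRCm38.p6, read 5′ to 3′ on the gene's strand. The windows are Cd79a at chr7:24897247-24897496 (plus strand), Cd81 at chr7:143052500-143052749 (plus), Blnk at chr19:40994222-40994471 (minus) and Bank1 at chr3:136326067-136326316 (minus). Capitals mark matches on either strand to 5 motifs: ATGCAAAT (the octamer bound by Oct factors), CCCNNGGG (bound by Ebf1), CAGGTG (an E box), CCGGAA (bound by Ets factors) and GGGCGG (a GC box).
Cd79a: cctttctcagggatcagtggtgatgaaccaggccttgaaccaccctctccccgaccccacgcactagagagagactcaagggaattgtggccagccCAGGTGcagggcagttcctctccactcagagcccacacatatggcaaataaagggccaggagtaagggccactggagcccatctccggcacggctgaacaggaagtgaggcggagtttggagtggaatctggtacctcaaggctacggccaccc
Cd81: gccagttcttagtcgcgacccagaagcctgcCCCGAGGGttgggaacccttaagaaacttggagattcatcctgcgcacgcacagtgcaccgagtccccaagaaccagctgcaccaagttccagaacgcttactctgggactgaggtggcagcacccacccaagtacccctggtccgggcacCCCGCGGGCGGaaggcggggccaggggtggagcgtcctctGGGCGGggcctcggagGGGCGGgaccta
Blnk: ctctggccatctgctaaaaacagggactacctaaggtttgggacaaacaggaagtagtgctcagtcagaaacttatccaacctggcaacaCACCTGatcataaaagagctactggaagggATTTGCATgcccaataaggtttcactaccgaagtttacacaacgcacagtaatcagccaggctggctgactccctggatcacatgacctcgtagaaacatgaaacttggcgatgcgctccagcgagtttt
Bank1: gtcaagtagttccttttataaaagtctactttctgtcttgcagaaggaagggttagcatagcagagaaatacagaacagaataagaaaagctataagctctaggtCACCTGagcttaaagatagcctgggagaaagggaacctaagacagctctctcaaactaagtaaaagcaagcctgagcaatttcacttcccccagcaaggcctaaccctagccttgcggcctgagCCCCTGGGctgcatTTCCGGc
The table of promoters held 8 windows for 7 of these genes, Syk having 2, and none for Cd79b. The E box CAGGTG was in 6 of the 8 windows, those of Cd79a, Blnk, Bank1, Plcg2 and both of Syk, and in 17.2% of all 32851 windows. The octamer was in the Blnk window alone, 1 of 8, against 1.6% of all windows. CCCNNGGG was in 2 of the 8 windows, those of Bank1 and Cd81, and in 11.8% of all. CCGGAA was in 1, Bank1, and in 12% of all. GGGCGG was in 2, those of Cd81 and Plcg2, against 32.7% of all, and in Cd81 1 of its copies overlaps a copy of CCCNNGGG. A match describes these exact letters only, so a site with variant letters is not marked, and a window without a match may still hold such a site. No binding was measured.

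Some arrays stood apart from the rest. The 3 anti-IgM+CpG arrays had Xist signals of 321 to 589, against 4252 to 15543 on the other 12 arrays. The ratio of 5′ to 3′ beta-actin control signals, a measure of transcript length after labelling, was 0.105 to 0.193 on those 3 arrays, 0.335 to 0.747 on the 8 other arrays labelled with the Enzo kit (replicates 1 and 2) and 0.108 to 0.201 on the 4 other Ambion arrays (replicate 3). By that ratio anti-IgM+CpG replicates 1 and 2 resembled Ambion arrays although labelled Enzo. The part of these differences in the comparisons that use the anti-IgM+CpG arrays was not tested, so some values are also given without them or with the kit read from the ratio. The low Xist was on every array of that group. In those comparisons the combined stimulus and whatever else set these arrays apart therefore cannot be told apart. None of the 7 B cell markers measured was at 0: in media Ms4a1 read 38626 to 41562, Pou2af1 47173 to 53015 and Pax5 1168 to 1230.

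Most of these genes fell after every stimulus, and Cd81 was the 1 gene that rose. Cd79a, Cd79b, Syk, Btk and Bank1 fell after all 4 stimuli, with log2 changes from -0.78 to -3.63. Cd81 rose after CpG, PL2-3 and anti-IgM+CpG, Blnk fell after 3 of the 4, and Plcg2 moved least. Tests were made with limma over 13159 genes, each by its brightest probe set, on log2 of the signal plus 75.1, so that folds of dim genes are understated. A gene was called at a Benjamini-Hochberg adjusted p under 0.05, which is what rose and fell mean below.

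After anti-IgM 6 of the 8 genes fell and none rose, where 9.32% of all genes tested were called lower and 10.1% higher. After CpG 6 fell and 1 rose (16.9% and 13.1% of all genes), after PL2-3 6 fell and 1 rose (13.5% and 12.4%), and after anti-IgM+CpG 6 fell and 1 rose (24.8% and 17.2%). The median log2 change of the 8 genes was -1.36 after anti-IgM, -1.23 after CpG, -1.51 after PL2-3 and -1.70 after anti-IgM+CpG, beside -0.13, -0.21, -0.10 and -0.29 over all genes. In each of these 4 comparisons the stimulated arrays did not overlap the media arrays for 7 of the 8 genes, which held for 30.8%, 40.6%, 33.9% and 50.3% of all genes. All 4 comparisons share the same 3 media arrays. When the kit was read from the actin ratio, log2 changes after anti-IgM+CpG were -2.24 for Cd79a, -4.03 for Cd79b, 0.74 for Cd81, -2.61 for Syk, -1.75 for Btk, -0.67 for Blnk, -0.53 for Plcg2 and -3.76 for Bank1, and all 8 were called (adjusted p = 0.0262 for Plcg2 and 0.0279 for Blnk). Shifting all arrays to a common median moved the median of all genes to 0.12, 0.15, 0.09 and 0.30. With that shift the share of called genes that were higher went from 52.1% to 77.1% after anti-IgM, from 43.7% to 74.6% after CpG, from 47.8% to 64.7% after PL2-3 and from 40.9% to 79.2% after anti-IgM+CpG.

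**Figure D1:**
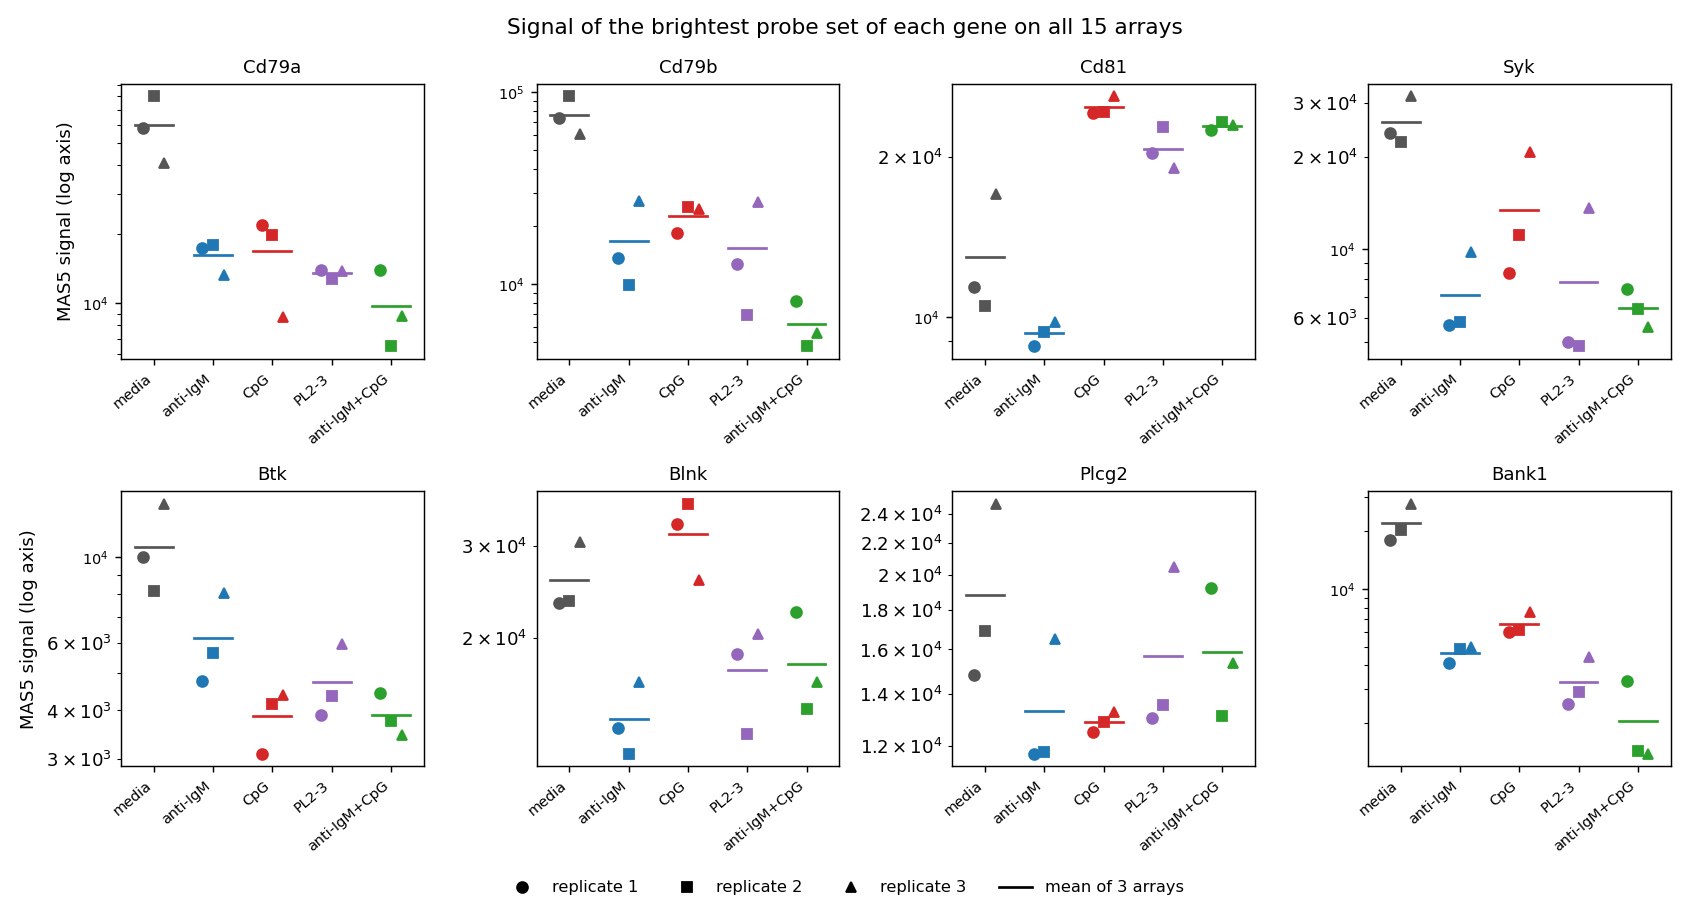
MAS5 signal (log axis) of the brightest probe set of each gene on all 15 arrays, by group; circles, squares and triangles are replicates 1, 2 and 3 and lines are means of 3 arrays. Media arrays lie above all stimulated arrays for Cd79a, Cd79b, Syk, Btk and Bank1, and below the CpG, PL2-3 and anti-IgM+CpG arrays for Cd81.

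**Figure D2:**
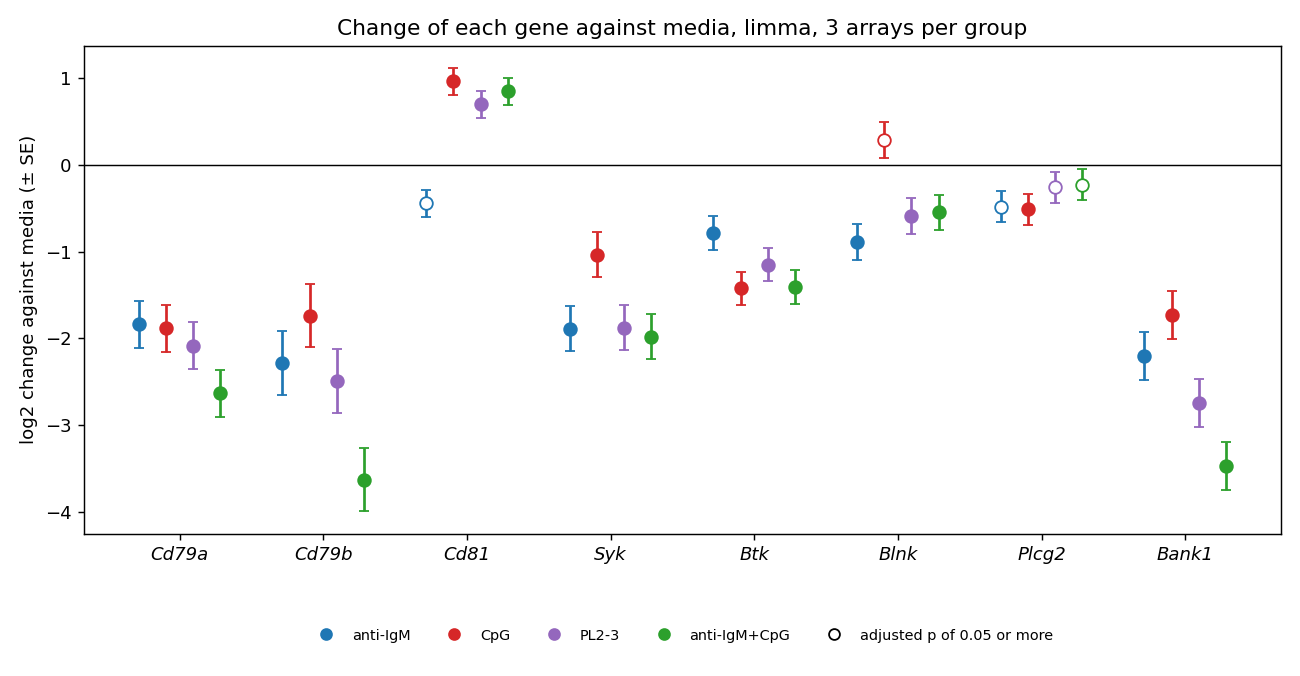
Log2 change of each gene against media with its standard error, from limma with 3 arrays per group; open circles had an adjusted p of 0.05 or more. Cd79b and Bank1 reach -3.63 and -3.47 after anti-IgM+CpG, Cd81 lies above 0 after 3 of the 4 stimuli, and Plcg2 stays between -0.51 and -0.23.

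Cd79a, the Ig-alpha chain, fell after each stimulus. Its signals were 58350, 80259 and 40925 in media (replicates 1, 2 and 3), 17437, 17927 and 13300 after anti-IgM, and 22039, 19823 and 8664 after CpG. They were 14020, 12802 and 13849 after PL2-3 and 13924, 6485 and 8751 after anti-IgM+CpG. The lowest media array was thus above the highest of the 12 stimulated arrays. Cd79a fell, with log2 changes of -1.84 after anti-IgM (SE 0.27, adjusted p = 0.000266), -1.88 after CpG (adjusted p = 9.03e-05), -2.08 after PL2-3 (adjusted p = 5.70e-05) and -2.63 after anti-IgM+CpG (adjusted p = 2.63e-06). Media was therefore 3.57-fold, 3.69-fold, 4.24-fold and 6.19-fold above the 4 stimulated groups. By mean signal the order was media, CpG, anti-IgM, PL2-3 and anti-IgM+CpG, and no pair of stimulated groups differed past the threshold.

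Cd79b, the Ig-beta chain, fell with it and further after the combined stimulus. Its signals were 73181, 95400 and 60862 in media, 13635, 9923 and 26987 after anti-IgM and 18502, 25153 and 24570 after CpG. After PL2-3 they were 12770, 6915 and 26797, and after anti-IgM+CpG 8175, 4753 and 5589. All media arrays were above all stimulated ones, and the replicate labelled with the Ambion kit was the highest after anti-IgM and after PL2-3. Cd79b fell, with log2 changes of -2.28 after anti-IgM (SE 0.37, adjusted p = 0.000493), -1.74 after CpG (adjusted p = 0.00205), -2.49 after PL2-3 (adjusted p = 0.000147) and -3.63 after anti-IgM+CpG (adjusted p = 2.29e-06). Within kits the log2 difference from media was -2.84 on Enzo and -1.17 on Ambion arrays after anti-IgM, and -3.14 and -1.18 after PL2-3. The corresponding values were -1.95 and -1.31 after CpG and -3.73 and -3.43 after anti-IgM+CpG. Here and below each Ambion value comes from replicate 3 alone in both groups compared. The mean signal was highest in media, then CpG, anti-IgM, PL2-3 and anti-IgM+CpG, a 12.4-fold span. Among the stimulated groups CpG, anti-IgM and PL2-3 did not differ past the threshold. These are bulk samples, in which fewer cells of a type and less RNA per cell cannot be told apart.

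Cd81 ran the other way. Its signals were 11389, 10485 and 16989 in media, 8806, 9371 and 9764 after anti-IgM, and 24189, 24255 and 26009 after CpG. They were 20293, 22726 and 19052 after PL2-3 and 22483, 23248 and 22971 after anti-IgM+CpG. The 9 arrays with CpG or PL2-3 were all above the highest media array, and the 3 anti-IgM arrays were all below the lowest. Cd81 rose 1.95-fold after CpG (log2 change 0.97, SE 0.15, adjusted p = 0.000213), 1.63-fold after PL2-3 (0.70, adjusted p = 0.00296) and 1.80-fold after anti-IgM+CpG (0.85, adjusted p = 0.000374). After anti-IgM the log2 difference was -0.44 (adjusted p = 0.0551), which was past the threshold in 6 of 27 alternative settings, such as quantile normalization (adjusted p = 0.0142). The PL2-3 difference was 0.97 on Enzo and 0.16 on Ambion arrays. The mean was highest after CpG, then anti-IgM+CpG, PL2-3, media and anti-IgM, and the first 3 groups did not differ from one another past the threshold.

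Syk, the tyrosine kinase that docks on the receptor chains, was measured by 4 probe sets. The brightest, 1418261_at, read 23830, 22373 and 31503 in media, 5670, 5816 and 9841 after anti-IgM and 8409, 11122 and 20700 after CpG. It read 5010, 4842 and 13589 after PL2-3 and 7432, 6377 and 5597 after anti-IgM+CpG. No stimulated array reached the lowest media array, while replicate 3 was the highest of its group after anti-IgM, CpG and PL2-3. Syk fell, with log2 changes of -1.89 after anti-IgM (SE 0.26, adjusted p = 0.000159), -1.88 after PL2-3 (adjusted p = 8.70e-05) and -1.98 after anti-IgM+CpG (adjusted p = 2.20e-05). After CpG it fell by 1.03 (adjusted p = 0.00664), with -1.25 on Enzo and -0.60 on Ambion arrays. The PL2-3 difference was -2.21 on Enzo and -1.21 on Ambion arrays. The CpG call was lost when arrays were shifted to a common median (adjusted p = 0.151) and without a term for the kit (adjusted p = 0.0573). Media had the highest mean, then CpG, PL2-3, anti-IgM and anti-IgM+CpG, and of the stimulated groups next to each other in that order none differed past the threshold.

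The other Syk probe sets are dimmer and were tested in a fit over 23058 probe sets. 1418262_at read 7684, 7255 and 6795 in media, 1203, 2034 and 1575 after anti-IgM and 1705, 3060 and 2961 after CpG. It read 1328, 1420 and 1816 after PL2-3 and 1372, 936 and 888 after anti-IgM+CpG. Its media arrays lie close together and far above the rest, and it fell, with log2 changes of -2.15, -1.51, -2.21 and -2.70 after anti-IgM, CpG, PL2-3 and anti-IgM+CpG (adjusted p from 1.68e-06 to 0.000445). 1457239_at ranged over 700 to 2198 in media and over 56.1 to 1375 on the stimulated arrays. It fell by 2.02 after anti-IgM, with -1.83 after PL2-3 and -1.90 after anti-IgM+CpG (adjusted p = 0.00593, 0.00782 and 0.00344), with -0.90 after CpG (adjusted p = 0.164). 1425797_a_at read 1323, 1479 and 265 in media, its Ambion array lying among the stimulated ones, and 32.1 to 531 elsewhere. It fell only after anti-IgM+CpG (log2 change -2.32, adjusted p = 0.00127), and gave -1.08, -0.79 and -1.33 after the other stimuli (adjusted p = 0.149, 0.248 and 0.0590). So 3 of the 4 probe sets fell after anti-IgM and after PL2-3, 2 after CpG and 4 after anti-IgM+CpG, among probe sets of which 6.67%, 10.9%, 13.5% and 24.8% were called lower.

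**Figure D3:**
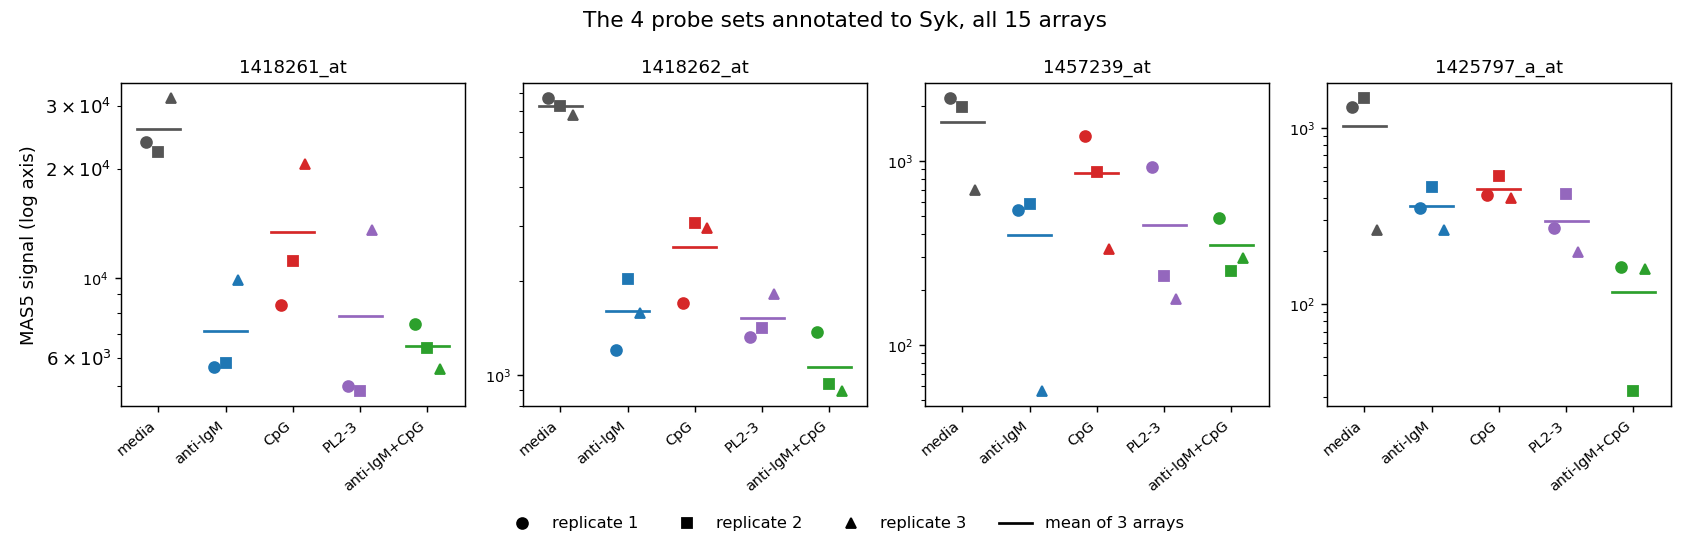
MAS5 signal (log axis, its range set for each panel) of the 4 probe sets annotated to Syk on all 15 arrays; symbols are replicates and lines are means of 3 arrays. Media arrays of 1418261_at and 1418262_at are above every stimulated array, while media replicate 3 of 1425797_a_at, at 265, is not.

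Btk, the Tec family kinase that activates Plcg2, fell after all 4 stimuli. It read 10012, 8154 and 13758 in media, 4781, 5648 and 8088 after anti-IgM, and 3087, 4151 and 4382 after CpG. It read 3882, 4350 and 5959 after PL2-3 and 4449, 3755 and 3454 after anti-IgM+CpG. The gap was narrow for anti-IgM, whose highest array nearly reached the lowest media array, and wide for CpG. Btk fell, with log2 changes of -0.78 after anti-IgM (SE 0.20, adjusted p = 0.00997), -1.42 after CpG (adjusted p = 5.94e-05), -1.15 after PL2-3 (adjusted p = 0.000438) and -1.41 after anti-IgM+CpG (adjusted p = 3.65e-05). The anti-IgM call was lost with arrays shifted to a common median (adjusted p = 0.180), without media replicate 3 (adjusted p = 0.0565) and without anti-IgM replicate 1 (adjusted p = 0.0578). Media was followed by anti-IgM, PL2-3, anti-IgM+CpG and CpG, and no neighbouring pair of stimulated groups differed past the threshold.

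Blnk, the adaptor that joins Syk to Btk and Plcg2, separated anti-IgM from CpG. Its signals were 23319, 23489 and 30603 in media, 13369, 11948 and 16458 after anti-IgM and 33118, 36241 and 25788 after CpG. They were 18616, 13020 and 20300 after PL2-3 and 22420, 14582 and 16423 after anti-IgM+CpG. CpG arrays overlapped media, and every other stimulated array was below the lowest media array. Blnk fell by 0.89 after anti-IgM (SE 0.21, adjusted p = 0.00640), a call lost with arrays shifted to a common median (adjusted p = 0.101). After CpG the log2 difference was 0.29 (adjusted p = 0.306), 0.56 on Enzo and -0.25 on Ambion arrays. After PL2-3 it fell by 0.59 (adjusted p = 0.0467) and after anti-IgM+CpG it fell by 0.55 (adjusted p = 0.0441), and both calls were weak. The PL2-3 call was lost in 16 of 27 alternatives, among them leaving out any 1 of the media, anti-IgM or PL2-3 arrays or CpG replicate 1 (adjusted p from 0.0501 to 0.209). The anti-IgM+CpG call was lost in 13 of 26. They include leaving out any media array, anti-IgM replicate 1, CpG replicate 1, PL2-3 replicate 1 or anti-IgM+CpG replicate 2 or 3 (adjusted p from 0.0518 to 0.169), and a shift of all arrays to a common median turned its log2 difference to 0.05 (adjusted p = 0.907). The mean was highest after CpG, then in media, a pair that did not differ past the threshold, and lower after anti-IgM+CpG, PL2-3 and anti-IgM, which did not differ from one another past the threshold.

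Plcg2, the phospholipase at the end of this chain, varied least, with group means spanning 0.51 on the log2 scale. It read 14819, 16895 and 24722 in media, 11718, 11777 and 16490 after anti-IgM and 12517, 12884 and 13278 after CpG. It read 13049, 13547 and 20487 after PL2-3 and 19210, 13099 and 15373 after anti-IgM+CpG. Of the 4 stimulated groups only the CpG arrays were all below media. Plcg2 fell by 0.51 after CpG (SE 0.18, adjusted p = 0.0397), a call lost in 10 of 27 alternatives, among them without media replicate 2 (adjusted p = 0.0828) or 3 (0.178), anti-IgM replicate 1 (0.0507) or CpG replicate 1 (0.0717), 2 (0.0529) or 3 (0.190). The differences after anti-IgM, PL2-3 and anti-IgM+CpG were -0.48, -0.26 and -0.23 (adjusted p = 0.0706, 0.327 and 0.322). The first was past the threshold in 5 of 27 alternatives (lowest adjusted p = 0.00936). The last was past it in 3 of 26 alternatives (lowest adjusted p = 0.00870), among them the kit read from the actin ratio (-0.53, adjusted p = 0.0262). The unadjusted 95% intervals of these 3 differences were -0.85 to -0.10, -0.63 to 0.12 and -0.60 to 0.15, so a fall of 0.60 was within the error in each, and the last difference turned to 0.37 (adjusted p = 0.229) with arrays shifted to a common median. Below media the means ran from anti-IgM+CpG through PL2-3 and anti-IgM to CpG, and no stimulated pair differed past the threshold.

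Bank1, the scaffold that binds Lyn, had with Cd79b the largest falls of the 8 genes after anti-IgM, PL2-3 and anti-IgM+CpG. Its signals were 18061, 20329 and 27774 in media, 4114, 4894 and 4955 after anti-IgM and 5961, 6079 and 7579 after CpG. They were 2503, 2898 and 4413 after PL2-3 and 3331, 1432 and 1385 after anti-IgM+CpG. The lowest media array was more than double the highest stimulated array. Bank1 fell, with log2 changes of -2.21 after anti-IgM (SE 0.28, adjusted p = 8.48e-05), -1.73 after CpG (adjusted p = 0.000231), -2.74 after PL2-3 (adjusted p = 8.62e-06) and -3.47 after anti-IgM+CpG (adjusted p = 3.75e-07). Media was 4.62-fold, 3.31-fold, 6.69-fold and 11.1-fold above those groups. Its mean descended from media through CpG, anti-IgM and PL2-3 to anti-IgM+CpG, and neighbouring stimulated groups did not differ past the threshold.

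CpG against anti-IgM compares signalling through TLR9 with signalling through the receptor. Cd81 was higher after CpG (log2 difference 1.41, adjusted p = 1.66e-05), and so was Blnk (1.18, adjusted p = 0.00159), 2 of 8 genes where 2.57% of all genes were called higher and 3.84% lower. Both held in all 27 alternatives. Syk differed by 0.85 and Btk by -0.64 (CpG minus anti-IgM), short of the threshold (adjusted p = 0.0652 and 0.0639). Without the anti-IgM+CpG arrays in the fit both passed it (adjusted p = 0.00678 and 0.0147), as they did with the kit read from the actin ratio (adjusted p = 0.00669 and 0.0161), so the count became 4. It was 4 also without anti-IgM+CpG replicate 1 or 3 alone.

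PL2-3 was set against each other stimulus to ask how the immune complex compares with either signal alone and with both. Against anti-IgM, Cd81 was the 1 gene called (1.14, adjusted p = 0.00173), where 0.342% of all genes were called higher and 0.35% lower. Against CpG, Blnk was lower after PL2-3 (-0.88, adjusted p = 0.0263), where 1.6% of all genes were called lower and 1.6% higher. That call was lost without CpG replicate 1 (adjusted p = 0.124) or 2 (0.127) or PL2-3 replicate 1 (0.0530) or 2 (0.151). For Bank1 and Syk the difference PL2-3 minus CpG was -1.02 and -0.84 (adjusted p = 0.0618 and 0.103), and without the anti-IgM+CpG arrays both were called (adjusted p = 0.000562 and 0.0116), so the count became 3. It was 2 without PL2-3 replicate 3 or without anti-IgM+CpG replicate 1, and 3 without anti-IgM+CpG replicate 3.

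PL2-3 against anti-IgM+CpG gave no called gene of the 8 with limma, where 1.32% of all genes were called higher and 0.517% lower, and 2 of the 8 had an unadjusted p under 0.05. Those were Cd79b, 1.14 higher after PL2-3 (adjusted p = 0.109), and Bank1, 0.73 higher (adjusted p = 0.158). The unadjusted 95% intervals of the log2 difference were 0.36 to 1.92 for Cd79b, 0.14 to 1.32 for Bank1 and -0.03 to 1.12 for Cd79a. They were -0.48 to 0.18 for Cd81, -0.45 to 0.66 for Syk, -0.15 to 0.68 for Btk, -0.48 to 0.40 for Blnk and -0.41 to 0.34 for Plcg2. The receptor chains and Bank1 could thus differ by more than 1 log2 unit at this precision, while for Cd81, Blnk and Plcg2 the bounds were within 0.48. Without anti-IgM+CpG replicate 1 Bank1 was called (1.19, adjusted p = 0.00531).

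Against anti-IgM alone, 2 genes were lower and 1 higher after anti-IgM+CpG (5.36% and 3.72% of all genes). Cd81 was higher (log2 difference 1.29, adjusted p = 0.000154), and Cd79b (-1.35, adjusted p = 0.0328) and Bank1 (-1.27, adjusted p = 0.0110) were lower. The Cd79b call was lost with arrays shifted to a common median (adjusted p = 0.125), without anti-IgM replicate 1 (0.0820) or 3 (0.138) and without anti-IgM+CpG replicate 2 (0.115) or 3 (0.0825). The Bank1 call was lost with the same shift (0.0615), without anti-IgM replicate 2 (0.0568) and without anti-IgM+CpG replicate 2 (0.0605). The count of 3 was 5 without anti-IgM+CpG replicate 1 and 1 without replicate 2. Reading the kit from the actin ratio gave -1.75 for Cd79b and -1.55 for Bank1 (adjusted p = 0.0162 and 0.00396). Btk, at -0.63 (adjusted p = 0.0551), was past the threshold with that reading (-0.97, adjusted p = 0.00446), without media replicate 3 (adjusted p = 0.0484) and without anti-IgM+CpG replicate 1 (adjusted p = 0.0238).

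Against CpG alone, 4 genes were lower and none higher after anti-IgM+CpG (2.61% and 1.92% of all genes). They were Cd79b (log2 difference -1.89, adjusted p = 0.00702), Bank1 (-1.75, adjusted p = 0.00163), Blnk (-0.84, adjusted p = 0.0270) and Syk (-0.95, adjusted p = 0.0490). The Syk call was lost in 18 of 26 alternatives. They include the replicate block (adjusted p = 0.0581) and leaving out any 1 of the anti-IgM or CpG arrays, media or PL2-3 replicate 1 or 2, or anti-IgM+CpG replicate 2 or 3 (adjusted p from 0.0549 to 0.168). With the kit read from the actin ratio the Syk difference was larger, -1.57 (adjusted p = 0.000265). The Blnk call was lost in 6 of 26, which include leaving out CpG replicate 1 or 2 or anti-IgM+CpG replicate 2 or 3 (adjusted p from 0.0520 to 0.155). The count of 4 was 2 without any of these 4 arrays. Over all genes, shifting arrays to a common median moved the higher share of calls from 40.1% to 50.8% for CpG against anti-IgM, from 49.9% to 27.6% for PL2-3 against CpG and from 71.9% to 13.4% for PL2-3 against anti-IgM+CpG. It moved from 41% to 82.4% for anti-IgM+CpG against anti-IgM and from 42.3% to 67.2% for anti-IgM+CpG against CpG. Leaving out 1 array also moved the number of all genes called, from 242 to between 24 and 1667 for PL2-3 against anti-IgM+CpG, from 1194 to between 409 and 2137 for anti-IgM+CpG against anti-IgM, and from 596 to between 263 and 1605 for anti-IgM+CpG against CpG. The corresponding counts were 843 (496 to 1013) for CpG against anti-IgM, 91 (36 to 143) for PL2-3 against anti-IgM and 421 (208 to 539) for PL2-3 against CpG.

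**Figure D4:**
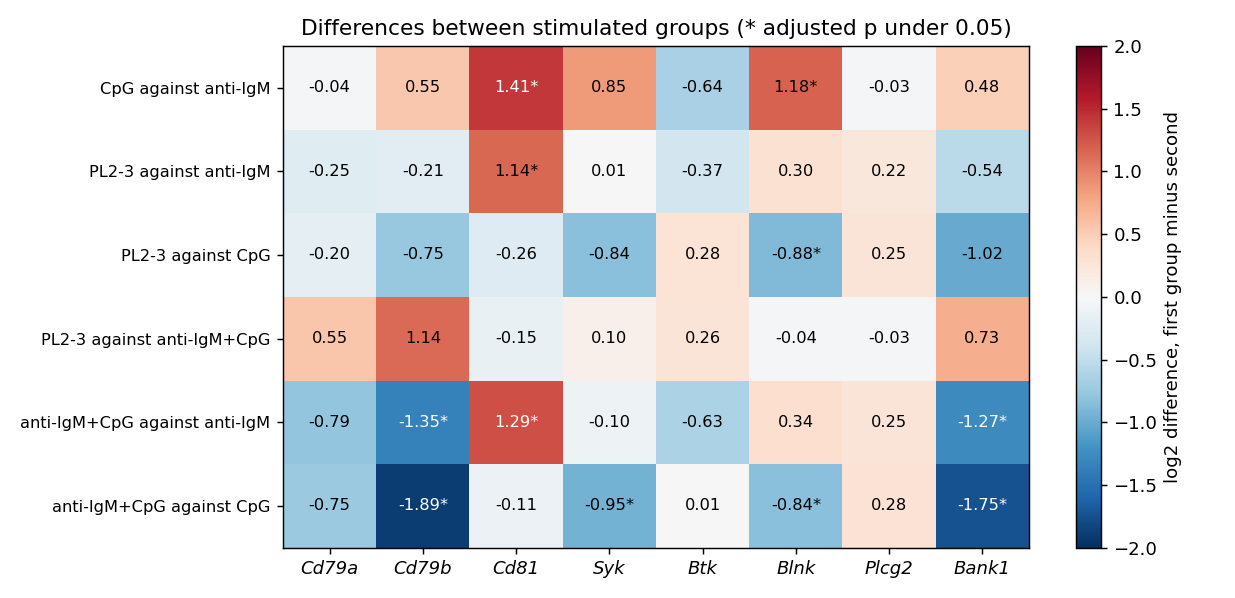
Log2 difference of each gene (columns) between stimulated groups (rows, first group minus second), with a star where the limma adjusted p was under 0.05. Cd81 is 1.14 to 1.41 higher in every group with CpG or PL2-3 than after anti-IgM alone, and Cd79b and Bank1 are lowest after anti-IgM+CpG.

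The profiles of the 8 genes over the 5 groups were compared in pairs by the root mean square difference between centred log2 group means. This is a description over 5 groups. Cd79b and Bank1 were closest (0.14), Cd79a and Syk next (0.36), and Cd79b and Cd81 farthest apart (1.49). Cd79a and Cd79b, partners in 1 heterodimer, differed by 0.40, Cd79b spanning 3.63 log2 units over the groups and Cd79a 2.63. Among all other genes tested, those nearest were Hemgn, Spata13 and Ccdc82 for Cd79a (0.09 to 0.10), and Senp7, Sgms1 and Ssh2 for Cd79b (0.19 to 0.23). Sgms1 and Ssh2, with Dgka, were also nearest to Bank1 (0.22 to 0.25). For Cd81 they were Cacna1s, Btla and Dennd5a (0.09 to 0.15), for Syk Phf21a, H2az2 and Snx20 (0.11 to 0.12), and for Btk Cpeb2, Wipf1 and Mast3 (0.04 to 0.05). For Blnk they were Cyria, Itgal and Mob3a (0.03 to 0.08), and for Plcg2 Ret, Lcmt1 and Ucp3 (0.03 to 0.04).

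Other activating genes of the pathway were mostly lower where called. Of 31 listed kinases, adaptors and second messenger genes 27 were tested. After anti-IgM 7 fell and 2 rose (9.32% and 10.1% of all genes), and after CpG 12 fell and 1 rose (16.9% and 13.1%). After PL2-3 12 fell and 1 rose (13.5% and 12.4%), and after anti-IgM+CpG 16 fell and 1 rose (24.8% and 17.2%). Their median log2 change was -0.26, -0.54, -0.33 and -0.96, nearer to that of all genes than the receptor genes were. With arrays shifted to a common median the number called went from 13 to 7 after PL2-3 and from 17 to 7 after anti-IgM+CpG, and the latter was 11 without a kit term or without anti-IgM+CpG replicate 2.

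After anti-IgM the largest falls among the activating genes were of Rasgrp3, a Ras exchange factor (log2 change -1.70), Stim1, the calcium sensor of the endoplasmic reticulum (-1.45), and Dapp1, an adaptor that binds phosphoinositides (-1.10). The Src family kinase Fyn (1.21) and the calcium channel Orai1 (1.12) rose. After CpG Tec, a kinase related to Btk (-1.81), Stim1 (-1.73) and the exchange factor Vav3 (-1.70) fell, and the adaptor Grb2 (0.45) rose. After PL2-3 Stim1 (-2.18), Tec (-1.68) and Rasgrp3 (-1.62) fell, and Orai1 (1.06) rose. After anti-IgM+CpG the PI3 kinase subunit Pik3cd (-1.71), Tec (-1.65) and protein kinase C beta, Prkcb (-1.65), fell, and Orai1 (0.84) rose. Stim1 and Orai1, the sensor and the channel of store-operated calcium entry, had opposite signs after all 4 stimuli, although Orai1 was not called after CpG (0.31, adjusted p = 0.300).

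Genes that restrain receptor signalling fell as well, and none rose (at most 1 did under any alternative setting). Of 18 listed 17 were tested, where 10.1%, 13.1%, 12.4% and 17.2% of all genes rose after anti-IgM, CpG, PL2-3 and anti-IgM+CpG. Of the 17 genes 7 fell after anti-IgM (9.32% of all genes), 13 after CpG (16.9%), 8 after PL2-3 (13.5%) and 13 after anti-IgM+CpG (24.8%). The last count was 8 with arrays shifted to a common median. Median log2 changes were -0.43, -1.09, -0.55 and -0.98. After anti-IgM Siglecg and Cd22, sialic acid binding inhibitory receptors (log2 changes -2.68 and -2.21), and Fcgr2b, the inhibitory Fc receptor (-2.18), fell furthest. After CpG these were Siglecg (-3.04), Inpp5d, the lipid phosphatase SHIP (-2.92), and Fcgr2b (-2.45). After PL2-3 they were Cd22 (-2.60), Fcgr2b (-2.33) and Siglecg (-2.16), and after anti-IgM+CpG Fcgr2b (-3.35), Inpp5d (-3.32) and Siglecg (-2.46).

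Of all genes 2.57% were called higher after CpG than after anti-IgM and 3.84% lower. Between CpG and anti-IgM 4 activating genes were higher after CpG and 10 lower, and 1 restraining gene was higher and 7 lower. The adaptor Lat2 (-1.73), Fyn (-1.70) and Vav3 (-1.58) were the lowest after CpG, and Rasgrp3 (1.51), Prkcb (0.85) and the phosphatase Ptprc (0.63) the highest. Of the restraining genes the ubiquitin ligase Cblb was higher after CpG (1.85), and Inpp5d (-1.93), Cd5 (-1.84) and Ptpn22 (-1.64) were lower. These counts shrank under other settings. The 14 activating genes became 8 or 9 with arrays shifted to a common median, without a kit term, on Enzo arrays alone, or without anti-IgM replicate 2 or 3 or any CpG array, and the 8 restraining genes 4 or 5 with that shift, on Enzo arrays alone, or without anti-IgM replicate 3 or CpG replicate 1 or 3. Between PL2-3 and anti-IgM no gene of either list was called with limma, and 6 activating and 3 restraining genes had an unadjusted p under 0.05. In that comparison only 0.342% of all genes were called higher and 0.35% lower.

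The rise of Cd81 was set beside its relatives. Of 12 listed leukocyte tetraspanins other than Cd81 11 were tested, and none rose after any stimulus (with arrays shifted to a common median, 3 rose and 2 fell after CpG and 2 rose and 3 fell after anti-IgM+CpG). At most 1 rose after anti-IgM or after PL2-3 under any alternative setting. Of all genes 10.1%, 13.1%, 12.4% and 17.2% rose after anti-IgM, CpG, PL2-3 and anti-IgM+CpG. Of the 11 tetraspanins 2 fell after anti-IgM (9.32% of all genes), 5 after CpG (16.9%), 3 after PL2-3 (13.5%) and 7 after anti-IgM+CpG (24.8%). Their median log2 changes were -0.37, -0.63, -0.34 and -0.75. The counts became 1 after anti-IgM with arrays shifted to a common median, 3 after CpG on Enzo arrays alone or without CpG replicate 3, and 5 after PL2-3 when the probe sets of each gene were averaged. Of these 11 Tspan13 had the largest fall in each comparison, with log2 changes of -1.65, -2.21, -1.92 and -2.71. Cd37 fell after all 4 stimuli (-0.96, -0.68, -1.13 and -1.30), and Cd151 after CpG (-1.33), PL2-3 (-1.14) and anti-IgM+CpG (-2.05), with -0.64 after anti-IgM (adjusted p = 0.158).

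**Figure D5:**
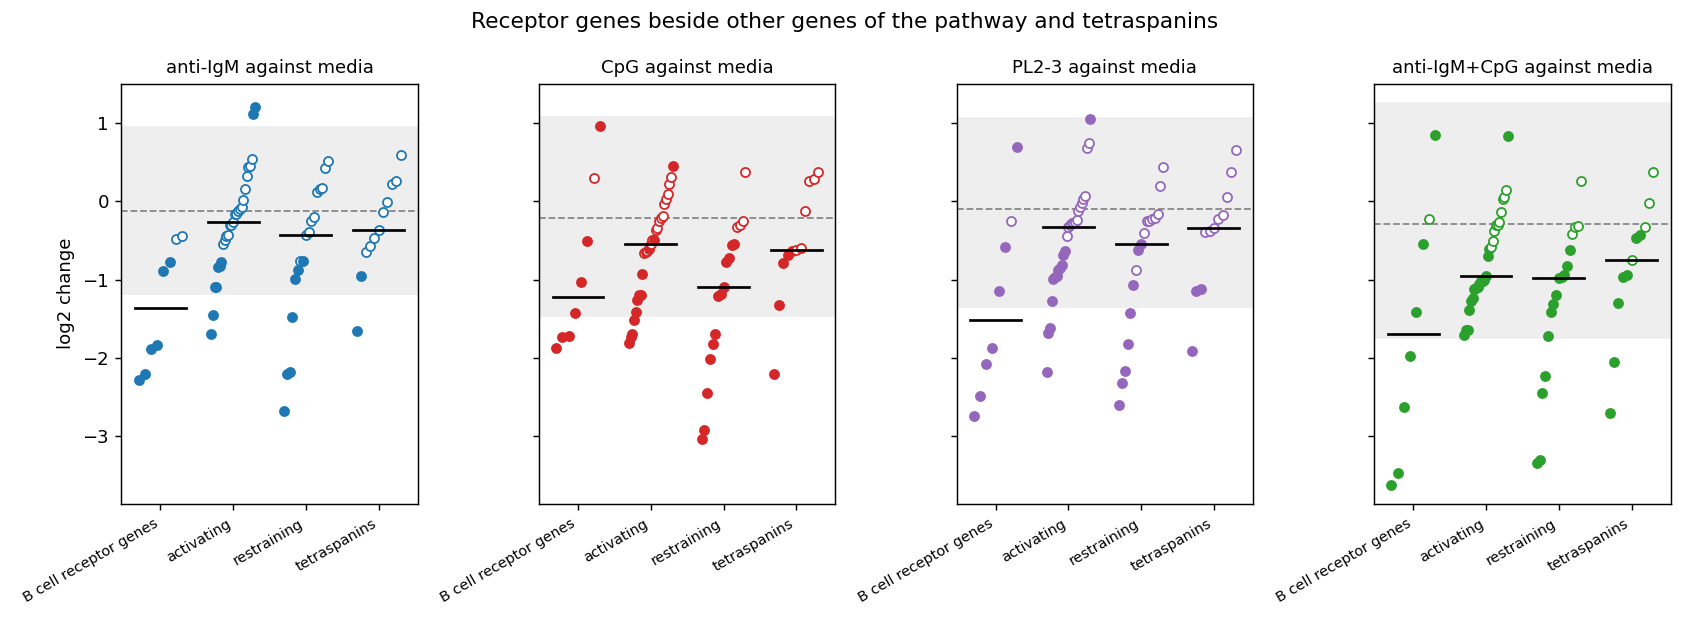
Log2 change against media of the 8 receptor genes, 27 other activating genes, 17 restraining genes and 11 tetraspanins; filled points had a limma adjusted p under 0.05, black bars are list medians, the dashed line is the median of all genes and the grey band spans their 5th to 95th percentile. The receptor genes have the lowest median in each panel. Cd81 is their highest point in each, and was called higher after CpG, PL2-3 and anti-IgM+CpG.

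Summed markers of B, T and NK cells were lower on every stimulated array than in media. Of the 7 B cell markers measured, Cr2 is also in the activating list and Cd22 in the restraining list. The summed signal of the 7 B cell markers was 143180 to 159518 in media, 57812 to 59392 after anti-IgM, 78215 to 81971 after CpG, 39055 to 50125 after PL2-3 and 39296 to 50787 after anti-IgM+CpG, and 5, 4, 6 and 7 of the 7 fell. Sums of 11 myeloid markers were 120630 to 250031 in media, 57404 to 100523, 50042 to 98211 and 53681 to 86394 after anti-IgM, CpG and PL2-3, and 14881 to 150492 after anti-IgM+CpG, and 3, 3, 2 and 8 fell. Both sums were thus below media on the stimulated arrays, apart from an overlap of the myeloid sums after anti-IgM+CpG. The 7 T cell markers summed to 8360 to 12712 in media and 2152 to 5029 on the 12 stimulated arrays, and 4, 3, 2 and 4 fell. The 4 NK cell markers summed to 4620 to 5110 in media and 1410 to 4336 on stimulated arrays, 1 falling in each comparison. The 4 erythroid markers summed to 42557 to 73966 and 15613 to 56006, with 1, 2, 2 and 2 of 3 tested falling. The 5 plasma cell markers summed to 54890 to 136692 in media and 38877 to 147506 otherwise, with 1 rising in each comparison and 0, 1, 1 and 1 falling. The 3 markers of plasmacytoid dendritic cells summed to 11628 to 14380 and 5387 to 26358, with 1, 1, 0 and 1 rising and 0, 1, 1 and 2 falling. Over all genes tested 9.32%, 16.9%, 13.5% and 24.8% fell after anti-IgM, CpG, PL2-3 and anti-IgM+CpG, and 10.1%, 13.1%, 12.4% and 17.2% rose. None of the cell type markers was at 0 on any array, and the part of their shifts in the receptor gene results was not tested.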

How the data were processed

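RNA of AM-14 B cells was measured on 15 Affymetrix mouse arrays. The deposited values were linear probe set signals (an intensity) made by the authors with MAS5, per the submitters' processing notes, whose version was not given. The mean without the extreme probe sets was 1499 to 1500 on every array, and array medians were 263 to 514. A single symbol was listed for 34945 of 45037 probe sets (932 had several, 9160 none), of which 34741 matched RefSeq. All 3 empty cells lay in the 64 control probe sets, which were not tested.

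Groups came from the titles. Signals were used as log2(signal + 75.1), the 20th percentile of all signals. Each gene took its brightest probe set, and 13159 genes whose signal reached the array's median on 3 or more arrays were tested. A model of group and labelling kit over all arrays was fitted with lmFit and eBayes with an intensity trend (limma 3.58.1, R 4.3.3, jsonlite 2.0.0), leaving 9 residual degrees of freedom, and was tested on simulated data. Figures used Python 3.11.15 and matplotlib 3.10.9. P-values are two-sided and adjusted over all genes within each of 10 comparisons.

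The genes, lists and tests were chosen with earlier results of these data known. Named genes were the members, up to 3 genes per list and direction with the largest called change, and for each member the 3 genes with the nearest profile. Same-numbered arrays deviated together in 18 of 18 pairs of groups without anti-IgM+CpG (r from 0.121 to 0.684) and in 0 of 12 with it (r at most 0.0745), so by the rule of a correlation over 0.1 in every pair the numbers were taken to pair all groups but that one. Different numbers passed 0.1 in 8 of 36 pairs without it (r up to 0.237), and replicate 3 is always the Ambion kit, so its number and its kit cannot be told apart. Alternatives were 12 other settings and leaving out each array. The main model held the kit but not the pairing by number, which entered only in the replicate block among those settings.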

Additional observations from a re-analysis of the deposited data

How the results depend on the processing

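Of 80 results (8 genes in 10 comparisons) 38 were called, and 27 of these stayed called in all alternatives run. Of the 42 uncalled, 31 stayed uncalled. Of the called results 1 changed sign, Blnk in anti-IgM+CpG against media, 0.049 with arrays shifted to a common median, and 15 uncalled results changed sign in some alternative. Counts of genes called for CpG against anti-IgM were 2, and 4 with the kit read from the actin ratio or without the anti-IgM+CpG arrays. For PL2-3 against CpG the count was 1, then 2 with quantile normalization or on Enzo arrays alone and 3 with the actin ratio or without the anti-IgM+CpG arrays. For anti-IgM+CpG against anti-IgM it was 3, and 1 after a shift of arrays to a common median. For anti-IgM+CpG against CpG it was 4, and 2 with that shift or without a kit term. Leaving out 1 array gave 5 to 8 after anti-IgM, 6 to 7 after CpG, 6 to 7 after PL2-3 and 6 to 8 after anti-IgM+CpG, all against media. It gave 2 to 4 for CpG against anti-IgM, 1 to 1 for PL2-3 against anti-IgM, 0 to 3 for PL2-3 against CpG, 0 to 1 for PL2-3 against anti-IgM+CpG, 1 to 5 for anti-IgM+CpG against anti-IgM and 2 to 4 for anti-IgM+CpG against CpG. The cause was not tested. The replicate block changed 1 call of a receptor gene, Syk in anti-IgM+CpG against CpG (adjusted p = 0.0581), and no other.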
